A study of Mus musculus with 6 samples.

Results

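Genes that mark macrophages and other myeloid cells were followed through mouse tibialis anterior muscle, the large muscle at the front of the shin, after the transcriptional co-activator Yap was knocked down. The set held 40 genes named by symbol for what they are known to mark, and 38 of them had a row among the 13226 genes of the table. Folr2, a folate receptor of resident macrophages, and Cx3cr1, the fractalkine receptor of monocytes, had no row. The genes were read in 7 groups by what their products are known for, namely general macrophage genes, resident markers, recruited markers, the C1q chains, Fc receptors and their adaptors, MHC class II genes and genes shared by all leukocytes.

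The muscles came from male C57BL/6 mice aged 8 weeks that received an AAV6 vector into the tibialis anterior. In 3 muscles, called YAP1 to YAP3 here as in the data, the vector was AAV6:Yap-shRNA, and in 3 others, called C1 to C3, it was the control, given as AAV6:LacZ-shRNA in the vector field and as an empty vector in the sample titles. The muscles were taken after 7 days, and polyA-selected RNA of whole muscle was sequenced. Each of 3 animals gave a control and a treated muscle, but the replicate numbers were not stated to be animals. The Yap shRNA was carried by a plasmid with a CMV promoter and eGFP, so delivery was not restricted to one cell type, and every muscle of both groups had been injected with a virus and taken at one time. Yap1 in lower case letters below is the gene, and YAP1 in capitals is the muscle.

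Macrophages of skeletal muscle lie between the fibres and around vessels. Resident cells commonly carry scavenger receptors such as CD163 and the mannose receptor, whereas monocytes that enter after damage carry CCR2 and later mature into macrophages that clear debris and signal to muscle precursor cells. Macrophages commonly depend on signalling through the CSF1 receptor. Both kinds of cell depend on the transcription factor PU.1, which is encoded by Spi1 and binds purine-rich GGAA sequences near many myeloid genes.

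The 6 libraries held between 11987167 and 12710393 counted reads, and the members between 6 and 1851 reads per library. Levels below are CPM, the counts scaled to one TMM-adjusted library size. The targeted gene Yap1 stood at 71.2, 65.3 and 68.4 CPM in C1, C2 and C3 and at 32.0, 23.9 and 39.5 CPM in YAP1, YAP2 and YAP3. The Yap-shRNA mean was thus 46.5% of control, with no overlap between the groups (log2 fold change -1.10, SE 0.16, edgeR adjusted p = 0.436, exact permutation p = 0.1, the smallest that 3 against 3 allows). Muscle fibre genes such as Acta1 and Myh4, which mark the labelled tissue, summed to between 109290 and 131700 CPM per library.

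None of the myeloid genes passed the test between control and Yap-shRNA muscles, while most of them ranked the 3 control muscles in one order. In edgeR's quasi-likelihood test 0 of the 38 members passed an adjusted p of 0.05, as did 0% of all genes. At an unadjusted p under 0.05, 1 member was higher in Yap-shRNA muscles, the platelet factor 4 gene Pf4, against 0.885% of all genes, and 0 members were lower, against 0.869% of all genes. DESeq2 called 0 members, against 0.0378% of all genes, and put 5 members under an unadjusted p of 0.05, all 5 higher in Yap-shRNA muscles, against 0.673% of all genes. In 1 member, Cd163, all 3 Yap-shRNA muscles lay above all 3 controls, against 2.56% of all genes, and in 0 members did all 3 lie below, against 2.71% of all genes. The fitted log2 fold change, Yap-shRNA minus control, was above 0 in 31 of 38 members with a median of 0.27, where the median of all genes was -0.0029, and it ran from -0.53 for Ms4a7 to 0.80 for Pf4 with SEs between 0.20 and 0.53. The highest control exceeded the lowest control by a larger ratio than the one separating the group means in 38 of 38 members, and as this was so in 91.9% of all genes, it does not set the members apart. In bulk muscle, more cells of a type and more RNA per cell cannot be told apart.

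C3 held the lowest level of the 6 muscles in 34 of 38 members, or 89.5%, whereas it was lowest in 15.0% of all genes. The 4 exceptions were Cd163 and Lyve1, lowest in C2, Ms4a7, lowest in YAP1, and Cd14, lowest in YAP2. C1 stood at the other end of the controls, since the order C1 over C2 over C3 was found in 32 of 38 members and in 15.6% of all genes. C1 was at least 2 times C3 in 28 members, or 73.7%, and in 3.93% of all genes. The median ratio of C1 to C3 was 2.44 over the members, with a range from 0.711 for Lyve1 to 5.56 for Itgam, and 1.00 over all genes. Library totals ran the other way, with 12285953 reads in C1, 12338863 in C2 and 12545053 in C3, and the part of depth was not tested.

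The Yap-shRNA muscles lay closer together. The median ratio of the highest to the lowest Yap-shRNA muscle was 1.57 over the members and 1.22 over all genes, while that of the highest to the lowest control was 2.44 over the members and 1.31 over all genes. The SD of log2 CPM was larger among the controls than among the Yap-shRNA muscles in 37 of 38 members, or 97.4%, and in 63.0% of all genes. YAP1 was the lowest of the 3 in 27 members, or 71.1%, against 32.8% of all genes. The highest level of the 6 muscles fell in C1 for 12 members, or 31.6%, against 22.1% of all genes. It fell in YAP2 for 12, or 31.6%, against 13.2%, and in YAP3 for 10, or 26.3%, against 15.4%. It fell in C2 for 4, or 10.5%, against 23.6%, and these were the 4 MHC class II genes. In C3 and YAP1 it fell for none, against 13.4% and 12.4% of all genes.

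**Figure D1:**
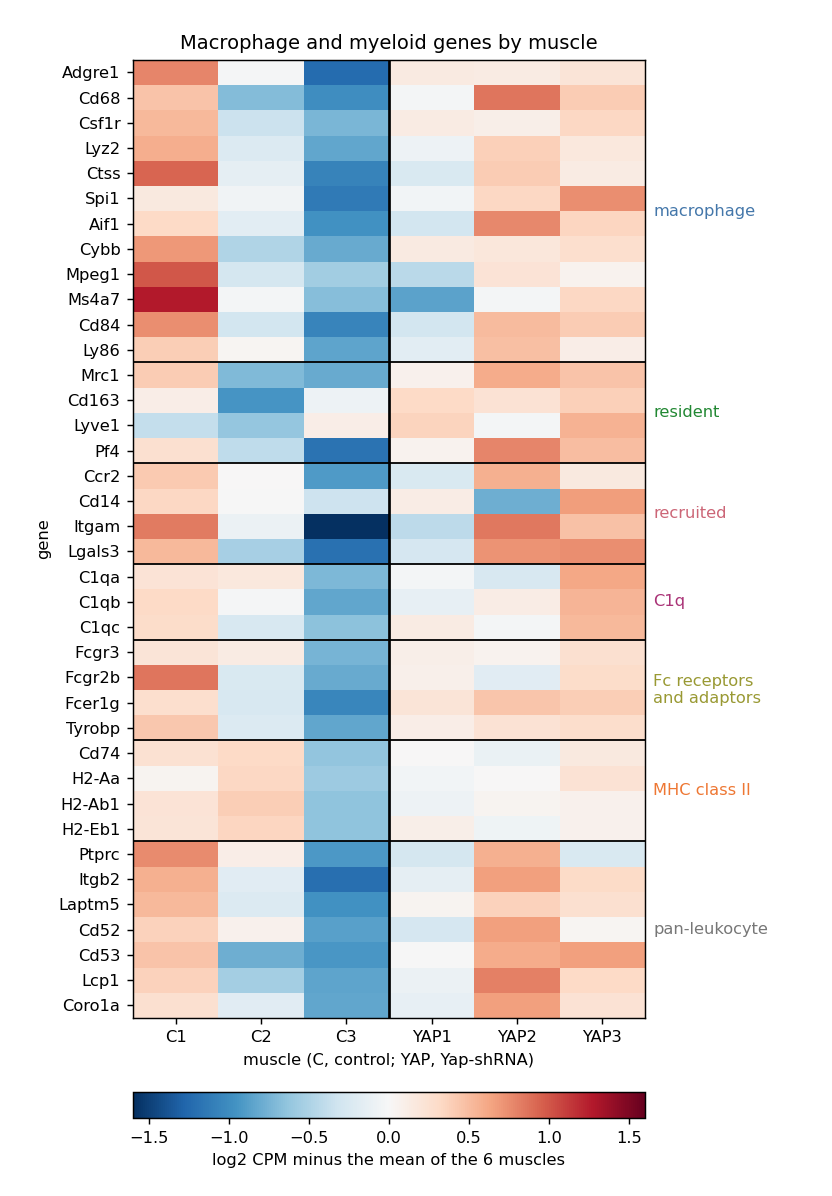
Level of each of the 38 members in each muscle, as log2 CPM minus the mean of the 6 muscles, with muscles on the horizontal axis and genes grouped by role on the vertical axis. Red is above and blue below the gene's own mean. The C3 column is blue for most genes and the C1 column mostly red, and the 3 Yap-shRNA columns differ less.

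The contrast between groups moved with these 2 controls. Summed over the members, the level was 734, 592 and 342 CPM in C1, C2 and C3 and 559, 645 and 678 CPM in YAP1, YAP2 and YAP3, so every Yap-shRNA muscle lay inside the control range. C3 was below every Yap-shRNA muscle in 35 members, or 92.1%, against 24.2% of all genes, and C1 was above every Yap-shRNA muscle in 15 members, or 39.5%, against 27.1%. Without C1, 38 of 38 members had a log2 fold change above 0 with a median of 0.67, 20 members lay above both remaining controls in every Yap-shRNA muscle against 11.8% of all genes, and 19 were higher at an unadjusted p under 0.05 against 3.82% of all genes, though the smallest adjusted p over the members was 0.285 (edgeR). Without C3, 18 of 38 were above 0 with a median of -0.029, and 2 members lay above and 3 below the remaining controls, against 5.43% and 5.08% of all genes. Without C2, 33 were above 0 with a median of 0.30. Without YAP1 the median was 0.41 and 8 members lay above all controls, against 6.52% of all genes.

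**Figure D2:**
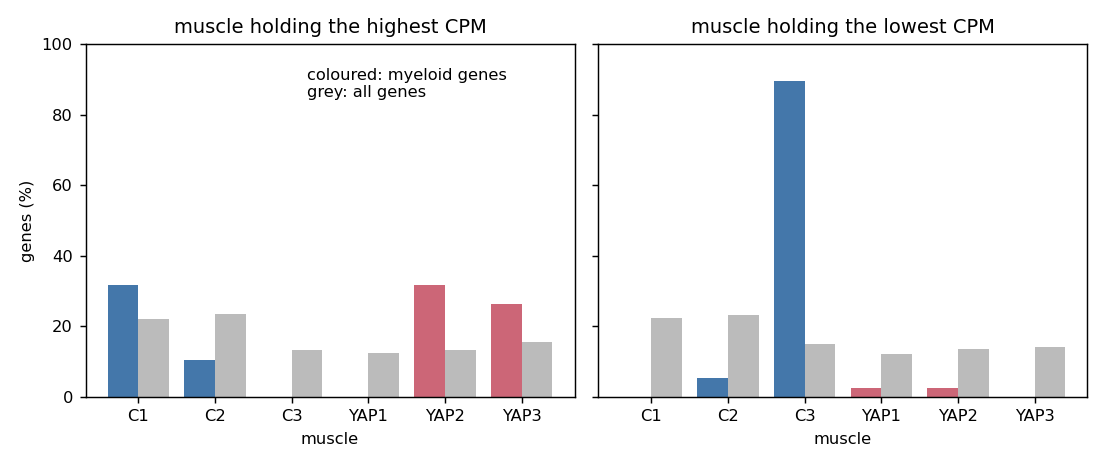
Share of genes, in percent, whose highest (left) or lowest (right) CPM of the 6 muscles fell in each muscle, for the 38 members (coloured bars, blue for control and red for Yap-shRNA) and all 13226 genes (grey bars). C3 holds the lowest level of 89.5% of members and of 15.0% of all genes.

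**Figure D3:**
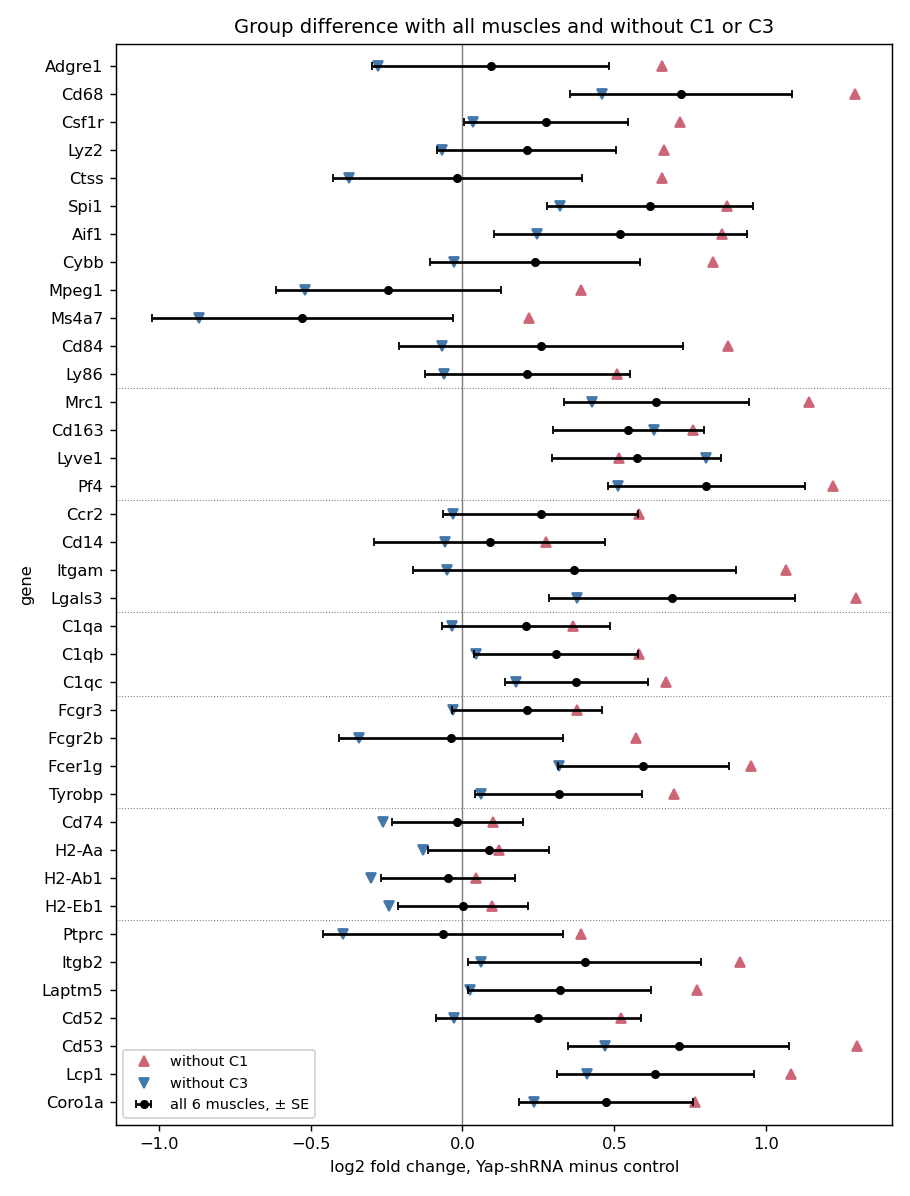
Log2 fold change of each member, Yap-shRNA minus control, from the fit of all 6 muscles (black points with bars of 1 SE), without C1 (red triangles pointing up) and without C3 (blue triangles pointing down). The red triangles all lie above 0, and the blue ones lie above 0 for 18 of 38 genes.

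The 12 general macrophage genes summed to 209, 113 and 74.8 CPM in C1 to C3 and to 127, 170 and 156 CPM in YAP1 to YAP3. Their log2 fold changes had a median of 0.23, with 9 above 0 and 3 below, and 8 of the 12 had their highest level in C1. Lyz2, which encodes the lysozyme of macrophages and granulocytes, was the most abundant at 102, 58.7 and 38.2 CPM in the controls and 64.7, 88.4 and 76.9 CPM in the Yap-shRNA muscles. All 3 Yap-shRNA values lay between C2 and C1, and the log2 fold change was 0.21 (SE 0.29). Lyz2 has a close copy in Lyz1, and reads shared between them may have been split by the counting.

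Csf1r encodes the receptor for CSF1 and IL-34, the growth factors that macrophages depend on. It was measured at 27.4, 15.0 and 11.5 CPM in C1 to C3 and at 20.9, 20.3 and 24.1 CPM in YAP1 to YAP3 (log2 fold change 0.27, SE 0.27). The Yap-shRNA values again sat between C2 and C1. Adgre1, the gene of the F4/80 antigen used to stain mouse macrophages, had 7.94, 4.60 and 1.97 CPM in the controls and 5.12, 5.07 and 5.34 CPM in the Yap-shRNA muscles (log2 fold change 0.093, SE 0.39). The Yap-shRNA values were almost equal, whereas C1 was 4.03 times C3.

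Spi1, the gene of PU.1, had 3.19, 2.76 and 1.31 CPM in the controls and 2.77, 3.61 and 4.78 CPM in the Yap-shRNA muscles (log2 fold change 0.62, SE 0.34). YAP1 lay level with C2, and the other two were above all controls. Cd68, a lysosomal glycoprotein gene of phagocytes, had 10.7, 4.85 and 3.94 CPM in C1 to C3 and 7.63, 14.2 and 10.4 CPM in YAP1 to YAP3 (log2 fold change 0.72, SE 0.36, edgeR unadjusted p = 0.0800). It had the largest fold change of the 12, yet C1 was above YAP1 and YAP3.

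At the lower end, Ms4a7, a membrane protein gene of macrophages, had 4.75, 1.92 and 1.23 CPM in the controls and 1.09, 1.92 and 2.47 CPM in the Yap-shRNA muscles (log2 fold change -0.53, SE 0.50). Its control mean was carried by C1, and YAP1 had the lowest level of all 6. Mpeg1, which encodes the pore-forming protein perforin-2, had 20.9, 8.70 and 7.14 CPM against 7.80, 12.3 and 11.0 CPM (log2 fold change -0.24, SE 0.37). Ctss, the gene of the lysosomal protease cathepsin S, had 20.1, 9.53 and 5.01 CPM against 8.89, 13.9 and 11.5 CPM (log2 fold change -0.017, SE 0.41). In both genes C1 was far above the rest and the other 5 muscles overlapped. Aif1 (Iba1, an actin-binding protein), Cybb (the membrane subunit of the phagocyte oxidase), Cd84 (a SLAM family receptor) and Ly86 (MD-1, a partner of the receptor RP105) had log2 fold changes from 0.21 to 0.52, each with C3 lowest. Cd84 and Aif1 were among the rarest members, with fewer than 10 reads in C3, as was Itgam below.

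The 4 resident markers in the table had log2 fold changes of 0.64 for Mrc1, 0.55 for Cd163, 0.57 for Lyve1 and 0.80 for Pf4, with a median of 0.61. Of the 7 groups this was the largest median, and whether it differed from that of the recruited markers was not tested. Cd163, the haemoglobin scavenger receptor, had 6.07, 2.93 and 5.33 CPM in C1 to C3 and 7.05, 6.60 and 7.34 CPM in YAP1 to YAP3, with group means of 4.78 ± 1.64 and 7.00 ± 0.369 CPM (SD, n = 3). It was the only member whose groups did not overlap, and its log2 fold change of 0.55 (SE 0.25) had an unadjusted edgeR p of 0.0550. C2, not C3, was its lowest muscle.

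Lyve1, a hyaluronan receptor of perivascular macrophages and of lymphatic vessels, had 1.87, 1.59 and 2.63 CPM in the controls and 3.10, 2.38 and 3.59 CPM in the Yap-shRNA muscles (log2 fold change 0.57, SE 0.28). C3 was its highest control and lay above YAP2, and its ratio of C1 to C3 of 0.711 was the only one below 1 among the members. Cd163 and Lyve1 were also the only members for which C1 lay below every Yap-shRNA muscle.

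Mrc1, the mannose receptor CD206, had 14.5, 6.69 and 6.24 CPM in C1 to C3 and 11.4, 16.4 and 14.9 CPM in YAP1 to YAP3 (log2 fold change 0.64, SE 0.30, edgeR unadjusted p = 0.0652). C1 fell among the Yap-shRNA muscles and the other 2 controls lay below all of them. Pf4, a chemokine gene known from platelets and also expressed by some macrophages, had 9.11, 5.77 and 3.36 CPM in the controls and 7.97, 13.1 and 10.8 CPM in the Yap-shRNA muscles (log2 fold change 0.80, SE 0.32, edgeR unadjusted p = 0.0348, adjusted p = 1.00). Its group means were 6.08 ± 2.88 and 10.6 ± 2.58 CPM (SD, n = 3), and C1 lay above YAP1.

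With C3 left out the median of the 4 resident markers stayed above 0, unlike that of the whole set (-0.029). It was 0.57 without C3 and 0.95 without C1 (log2 fold change), and its lowest value with any single muscle left out was 0.44, without C2. That of the 4 recruited markers was 0.31 with all muscles, 0.82 without C1 and -0.040 without C3. Cd163 and Lyve1, both lowest in C2, had 0.63 and 0.80 without C3, against 0.43 for Mrc1 and 0.51 for Pf4. Without C2, Cd163 and Lyve1 had 0.29 and 0.43, against 0.46 for Mrc1 and 0.76 for Pf4. Without C3, 18 members in all were above 0 and the rest below. Those above 0 included, outside the resident group, Cd53 (0.47), Cd68 (0.46), Lcp1 (0.41) and Lgals3 (0.38). In a second list of resident macrophage genes, read further below, 5 were above 0 and 4 below with all muscles (median 0.16). Whether the resident genes differed from other members was not tested.

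Among the recruited markers, Ccr2, the receptor for the monocyte chemokine CCL2, had 9.50, 7.11 and 3.77 CPM in C1 to C3 and 5.96, 10.5 and 7.89 CPM in YAP1 to YAP3 (log2 fold change 0.26, SE 0.32). The groups overlapped broadly, with YAP1 below C2. Lgals3, the gene of the lectin galectin-3, had 14.8, 7.11 and 4.51 CPM against 8.56, 16.9 and 17.2 CPM (log2 fold change 0.69, SE 0.40), and Itgam, the CD11b integrin chain, had 3.19, 1.67 and 0.574 CPM against 1.34, 3.22 and 2.47 CPM (log2 fold change 0.37, SE 0.53). Both had low C3 values and a YAP1 value among the controls. Itgam shared 3450 exonic bases on the same strand with the gene model Gm49368, so reads there may have been assigned to either.

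Cd14, a co-receptor for lipopolysaccharide, had 2.33, 1.84 and 1.48 CPM in the controls and 2.01, 1.07 and 2.95 CPM in the Yap-shRNA muscles (log2 fold change 0.090, SE 0.38). It was the one member whose SD of log2 CPM was larger among the Yap-shRNA muscles than among the controls. Summed, the resident markers were 1.06, 0.958 and 1.70 times the recruited ones in C1 to C3 and 1.65, 1.22 and 1.20 times in YAP1 to YAP3, so this ratio overlapped between the groups.

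**Figure D4:**
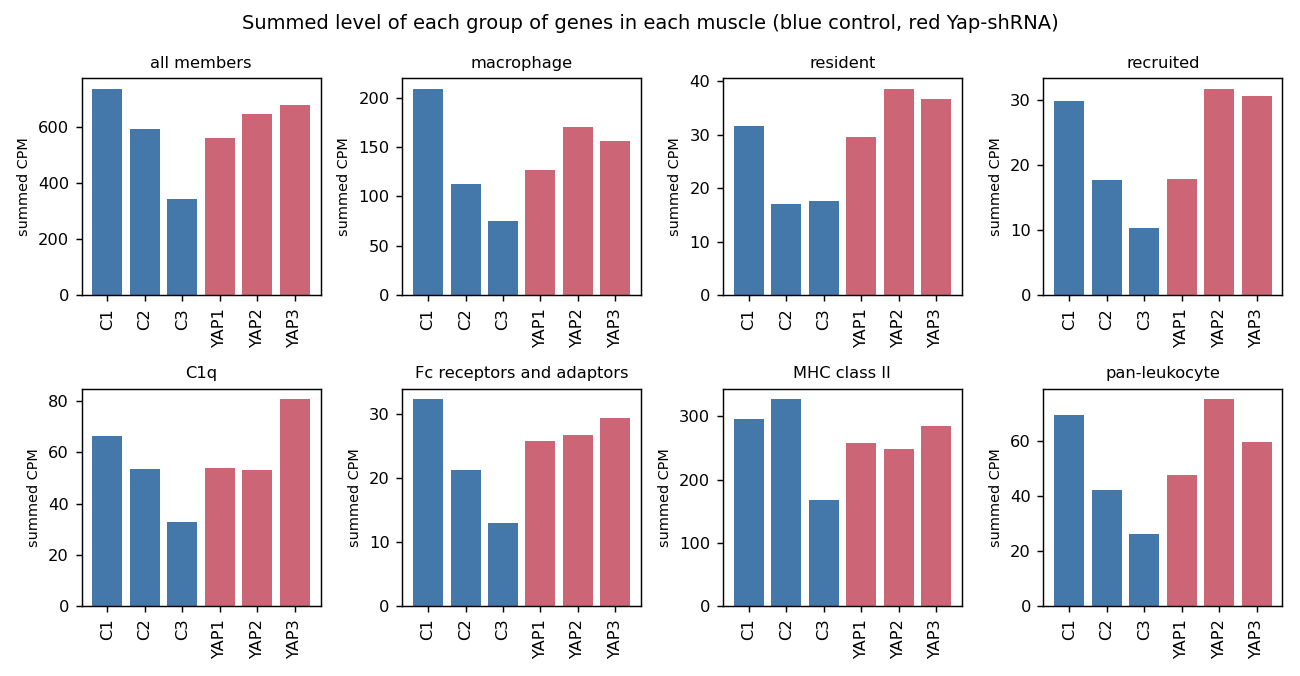
Summed CPM of all members and of each of the 7 groups in each muscle, blue for C1 to C3 and red for YAP1 to YAP3, each panel with its own vertical axis from 0. C3 is the lowest bar of every panel but the resident one, where C2 is lowest, and the MHC class II sum is highest in C2.

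C1q is the recognition molecule of the classical complement pathway and is made largely by macrophages from 3 chains. On GRCm38 (GENCODE M21) the genes are neighbours on the minus strand, with C1qb at chr4:136880129-136886187, C1qc at chr4:136889804-136893065 and C1qa at chr4:136895917-136898803. Promoters from RefSeq (GRCm38.p6, from 250 bases before to 50 bases after the start) are shown for C1qb, at chr4:136886151-136886450, and C1qc, at chr4:136892865-136893164, because both carry the PU.1 core GAGGAA. Both are printed 5′ to 3′ along the gene, with the core in capitals. Counted in bases from the transcription start, it lies at -30 in C1qb. In C1qc it lies on the other strand at -193, where it reads TTCCTC and is part of the longer GAGGAAGT.
C1qb: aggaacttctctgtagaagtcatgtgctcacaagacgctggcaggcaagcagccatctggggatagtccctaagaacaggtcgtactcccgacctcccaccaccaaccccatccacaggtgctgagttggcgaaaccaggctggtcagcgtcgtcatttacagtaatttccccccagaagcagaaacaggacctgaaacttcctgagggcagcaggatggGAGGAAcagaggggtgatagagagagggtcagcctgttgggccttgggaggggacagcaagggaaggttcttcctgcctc
C1qc: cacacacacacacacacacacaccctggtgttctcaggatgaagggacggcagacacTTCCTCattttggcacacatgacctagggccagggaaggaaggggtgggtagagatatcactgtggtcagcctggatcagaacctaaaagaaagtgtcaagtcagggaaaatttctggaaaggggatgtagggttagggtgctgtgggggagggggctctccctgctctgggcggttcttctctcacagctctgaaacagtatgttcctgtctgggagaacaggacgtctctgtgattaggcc

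Searched on both strands, GAGGAA was found in 16 of 35 promoters belonging to the 29 members with an entry, or 45.7%, and in 28.3% of the 32851 promoters of the table. GAGGAAGT, which contains the shorter core, was found in 4 of 35, or 11.4%, and in 3.20% of all promoters, and the 4 genes were C1qc, Cd53, Ctss and Pf4. Such matches describe letters in a window and were not tested as binding sites. The promoter of Fcer1g, looked at beside those of the C1q chains, held no GAGGAA, and C1qa and Tyrobp had no entry.

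The 3 chains were measured at close levels in each muscle. C1qb had 25.6, 20.1 and 11.5 CPM in C1 to C3 and 18.7, 22.2 and 30.0 CPM in YAP1 to YAP3 (log2 fold change 0.31, SE 0.27). C1qa had 19.5, 19.0 and 10.3 CPM against 16.4, 14.1 and 25.8 CPM (log2 fold change 0.21, SE 0.28), and C1qc had 21.2, 14.5 and 10.9 CPM against 18.9, 16.9 and 24.8 CPM (log2 fold change 0.37, SE 0.24). All 3 were lowest in C3 and highest in YAP3, and the groups overlapped for each.

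The Fc receptor genes encode receptors for antibody complexes. Fcgr3, an activating receptor, had 5.68, 5.43 and 2.95 CPM in the controls and 5.29, 5.14 and 5.90 CPM in the Yap-shRNA muscles (log2 fold change 0.21, SE 0.25). Fcgr2b, the inhibitory receptor, had 9.34, 4.35 and 2.95 CPM against 5.45, 4.53 and 6.30 CPM (log2 fold change -0.037, SE 0.37), with C1 above all others. Apart from the C3 value in each and the C1 value of Fcgr2b, the 6 muscles were close together. The Fcgr genes resemble each other in sequence, and reads may have been shared between them.

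The adaptors that pass on signals from such receptors exceeded C2 and C3 in each Yap-shRNA muscle. Fcer1g, the common gamma chain, had 8.17, 5.69 and 3.28 CPM in C1 to C3 and 7.80, 9.21 and 8.93 CPM in YAP1 to YAP3 (log2 fold change 0.60, SE 0.28, edgeR unadjusted p = 0.0626). Tyrobp, the adaptor DAP12, had 9.03, 5.77 and 3.77 CPM against 7.21, 7.83 and 8.13 CPM (log2 fold change 0.32, SE 0.28). C1 lay above YAP1 for Fcer1g and above all 3 Yap-shRNA muscles for Tyrobp.

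MHC class II molecules present peptides to CD4 T cells and are assembled with the invariant chain encoded by Cd74. Of the 7 groups these 4 genes had the median log2 fold change nearest 0, at -0.0072, with a range from -0.047 for H2-Ab1 to 0.086 for H2-Aa. Cd74 had 144, 152 and 78.7 CPM in C1 to C3 and 122, 113 and 135 CPM in YAP1 to YAP3 (log2 fold change -0.017, SE 0.21). H2-Aa, the alpha chain of I-A, had 53.5, 65.5 and 34.8 CPM against 50.5, 52.0 and 60.8 CPM (log2 fold change 0.086, SE 0.20). In these genes C2 was the highest muscle and C3 the lowest, with the Yap-shRNA muscles between them.

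H2-Ab1, the beta chain of I-A, had 51.3, 57.6 and 28.1 CPM in the controls and 41.4, 45.1 and 46.0 CPM in the Yap-shRNA muscles (log2 fold change -0.047, SE 0.22), and H2-Eb1, the beta chain of I-E, had 47.2, 52.3 and 26.3 CPM against 44.0, 39.1 and 43.1 CPM (log2 fold change 0.0026, SE 0.21). Both again ranked C2 first and C3 last. The 3 H2 genes lie together on chromosome 17, H2-Ab1 at chr17:34257689-34269419, H2-Aa at chr17:34282744-34287823 and H2-Eb1 at chr17:34305867-34316674 (GRCm38), and members of this family share sequence, so their counts carry that uncertainty. The summed MHC class II level was 1.42, 2.89 and 2.25 times the summed macrophage level in C1 to C3 and 2.03, 1.46 and 1.82 times in YAP1 to YAP3, so this balance too varied more among the controls.

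The 7 genes shared by leukocytes had a median log2 fold change of 0.40, with 6 above 0. Ptprc, the CD45 phosphatase, had 6.54, 4.18 and 2.05 CPM in the controls and 3.19, 5.76 and 3.27 CPM in the Yap-shRNA muscles (log2 fold change -0.064, SE 0.39). Laptm5, a lysosomal membrane protein gene, had 24.5, 14.7 and 8.70 CPM against 17.5, 22.0 and 20.4 CPM (log2 fold change 0.32, SE 0.30). Cd53, a tetraspanin gene, had 4.75, 2.01 and 1.81 CPM against 3.44, 5.22 and 5.42 CPM (log2 fold change 0.71, SE 0.36, edgeR unadjusted p = 0.0823). Of the 3, Cd53 came nearest to separating the groups, and C1 still lay above YAP1. Lcp1 (L-plastin, 0.63), Coro1a (coronin, 0.47), Itgb2 (the beta-2 integrin chain, 0.40) and Cd52 (a small surface glycoprotein, 0.25) completed the group with these log2 fold changes, each lowest in C3 and highest in YAP2. Lcp1, Coro1a, Cd52, Csf1r and Fcgr2b overlap a gene on the opposite strand by between 26 and 873 exonic bases, and whether the counting used strand is not given in the sources used here.

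Per kilobase of exon, the control mean level was highest for Cd74 at 74.3 CPM per kb, Lyz2 at 50.3, H2-Eb1 at 21.6, H2-Ab1 at 17.8 and C1qb at 17.5, and lowest for Cd84 at 0.162 CPM per kb. Tyrobp at 9.28, Pf4 at 8.43 and C1qc at 8.05 CPM per kb lay above Csf1r at 3.11 and Adgre1 at 1.49. On this scale Cd74 and Lyz2 were the most abundant of the set. Neighbours in this order, such as H2-Ab1 and C1qb, did not differ beyond the spread of the 3 controls.

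Genes that act with these members were read from 9 lists holding 90 genes, of which 72 were in the table. In edgeR's test 0 of the 72 passed an adjusted p of 0.05, 7 were higher and 2 lower at an unadjusted p under 0.05, where the shares of all genes were 0.885% and 0.869%, and their median log2 fold change was 0.15. The growth factors and chemokine ligands had all 9 of their measured genes above 0 with a median of 0.57, and the complement partners of C1q all 9 above 0 with a median of 0.36. The medians were 0.20 for 9 myeloid transcription factors, 0.11 for 9 genes of the phagocyte oxidase and its kinases, -0.017 for 5 of the MHC class II machinery, 0.16 for 9 other resident macrophage genes, 0.22 for 5 other monocyte genes, 0.0077 for 12 scavenger and lipid-handling genes and -0.18 for 6 activation genes.

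The most abundant ligand was Cxcl12, which holds CXCR4-bearing cells in tissue, at 114, 106 and 113 CPM in C1 to C3 and 110, 132 and 121 CPM in YAP1 to YAP3. Chosen after their values were seen, Ccl2, the ligand of CCR2, had 1.40, 0.334 and 0.574 CPM in the controls and 2.27, 5.53 and 5.82 CPM in the Yap-shRNA muscles (log2 fold change 2.53, SE 0.51, edgeR unadjusted p = 0.00072, adjusted p = 1), and Csf1, the ligand of Csf1r, had 16.7, 11.4 and 10.7 CPM against 15.2, 18.9 and 23.5 CPM (log2 fold change 0.57, SE 0.21). The Ccl2 groups did not overlap, at 4 to 73 reads per library, and C1 was the highest control for both genes. Of the complement partners, Serping1, the C1 inhibitor, ran from 78.0 CPM in muscle C3 to 165 CPM in YAP3, and the complement component gene C3, which shares its name with a muscle here, ran from 45.7 CPM in muscle C2 to 92.9 CPM in YAP3. Both were highest in YAP3 and overlapped between the groups.

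Markers of other cells were read beside the members, and their part in the differences was not tested. None of 10 T cell and 5 NK cell markers had a row, nor had 8 of 9 neutrophil markers, in a table whose rarest gene had 60 reads in all. The neutrophil marker with a row, Csf3r, had 1.40, 0.752 and 0.410 CPM in C1 to C3. It had 1.09, 0.998 and 0.718 CPM in YAP1 to YAP3, at 5 to 18 reads per library. Of 7 B cell markers Ighm, the IgM heavy chain, had a row, at 46.8, 69.1 and 92.7 CPM in C1 to C3 and 35.0, 66.9 and 67.1 CPM in YAP1 to YAP3, highest in the muscle where most members were lowest. The 4 dendritic cell markers found, of 8, summed to between 10.2 and 12.5 CPM. Zbtb46, the most abundant of them, had 6.62, 4.68 and 7.38 CPM in C1 to C3 and 7.55, 6.60 and 6.54 CPM in YAP1 to YAP3. By the median log2 deviation of these markers from their own means, C3 was the lowest muscle (-0.29) and C1 the highest (0.23). Endothelial markers, 5 of 5, summed to between 284 and 341 CPM. The 7 fibroblast markers summed to 2059, 1284 and 1085 CPM in C1 to C3 and 1297, 1291 and 2358 CPM in YAP1 to YAP3, and 5 of 6 tendon markers summed to 639, 174 and 126 CPM against 169, 145 and 529 CPM. By these sums C1 and YAP3 had the most fibroblast and tendon RNA, and C3 the least. By the median log2 deviation of the tendon markers from their own means, YAP2 (-1.10) and YAP1 (-0.94) lay below C3 (-0.76). The 5 adipocyte markers summed to 260, 269 and 239 CPM in C1 to C3 and 259, 233 and 287 CPM in YAP1 to YAP3. Their median log2 fold change was 1.04, with 4 above 0 and 1 below. Fabp4, the most abundant of the 5, had 236, 258 and 221 CPM against 245, 218 and 205 CPM, lowest in YAP3. Adipoq, the adiponectin gene, chosen after its values were seen, had 4.75, 2.01 and 2.87 CPM against 1.59, 3.15 and 16.3 CPM, highest in YAP3. YAP3 was also the muscle in which the C1q chains, Serping1 and the gene C3 were highest. The 5 erythroid markers summed to 120, 203 and 141 CPM in the controls and 243, 151 and 101 CPM in the Yap-shRNA muscles, highest in YAP1.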

How the data were processed

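The authors deposited raw read counts per gene for 6 libraries of polyA-selected RNA from tibialis anterior muscle, 3 control and 3 Yap-shRNA. The submitters' processing notes name bcl2fastq 2.20.0.422 and GRCm38. The aligner, the counter, its strand setting and the filter that left 13226 genes are not given in the sources used here. All genes were fitted with edgeR 4.0.16 (TMM, quasi-likelihood F-test, group as the term, R 4.3.3), with Benjamini-Hochberg adjustment over all 13226 genes and a threshold of 0.05. SEs were taken as log2 fold change over the root of F. CPM used TMM library sizes, and levels per kilobase the exon union of GENCODE M21. Alternatives were DESeq2 1.42.0, edgeR's likelihood ratio test, limma-voom 3.58.1, RLE and upper-quartile scaling, at least 10 counts in every library, the replicate number as a block, and leaving out each muscle. Deviations from the mean used log2(CPM + 0.1). The members and lists were chosen with earlier results of these data known. All members in the table are named, and in other lists the genes of highest mean CPM, at most 2, and any past the threshold. Genes named after their values were seen are marked as such. Gene positions came from GENCODE M21, and promoters from RefSeq. The scripts were tested on simulated data. Libraries held 11987167 to 12710393 counts, so counting error is largest for the rarest members.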

Additional observations from a re-analysis of the deposited data

How the results depend on the processing

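No member passed an adjusted p of 0.05 under any alternative. The number of genes called over the whole table was 0, against 5 under DESeq2, 5 under edgeR's likelihood ratio test, and between 0 and 1 with a muscle left out. Yap1 passed under those tests at log2 fold changes of -1.10 (DESeq2, adjusted p = 5.85e-07) and -1.10 (likelihood ratio test, adjusted p = 2.22e-06). Direction turned in 6 members whose difference was near 0. With limma-voom the log2 fold changes were 0.18 for Ctss, -0.0095 for Cd14, 0.11 for Fcgr2b, 0.038 for Cd74, 0.017 for H2-Ab1 and 0.030 for Ptprc. With the replicate block they were 0.15 for Ctss, 0.080 for Fcgr2b, 0.031 for Cd74, 0.0042 for H2-Ab1 and 0.00075 for Ptprc. The cause was not tested.

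Leaving out each muscle in turn moved more. Log2 fold changes ran from -0.28 to 0.66 for Adgre1, -0.066 to 0.66 for Lyz2, -0.37 to 0.66 for Ctss, -0.029 to 0.83 for Cybb, -0.52 to 0.39 for Mpeg1, -0.87 to 0.22 for Ms4a7, -0.068 to 0.87 for Cd84, -0.062 to 0.51 for Ly86, -0.030 to 0.58 for Ccr2, -0.29 to 0.40 for Cd14, -0.051 to 1.07 for Itgam, -0.090 to 0.38 for C1qa, -0.030 to 0.38 for Fcgr3, -0.34 to 0.57 for Fcgr2b, -0.26 to 0.15 for Cd74, -0.13 to 0.30 for H2-Aa, -0.30 to 0.15 for H2-Ab1, -0.24 to 0.19 for H2-Eb1, -0.40 to 0.39 for Ptprc and -0.057 to 0.52 for Cd52. The resident median ran from 0.44 to 0.95. Members whose Yap-shRNA muscles all lay above the controls numbered from 1 to 20, against 5.43% to 11.8% of all genes. Those all below numbered from 0 to 3, against 5.08% to 12% of all genes. Direction held under every alternative that gave a value for 18 members.

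Same-numbered muscles did not deviate together (correlations of -0.0255, 0.223 and -0.213 for numbers 1, 2 and 3), and of the controls C2 alone correlated best with its own number. With the replicate block 0 genes were called, 4 members had an unadjusted p under 0.05 against 1.61% of all genes, and the median over the members was 0.34 with 36 above 0. The count filter removed 3 members with fewer than 10 reads in a library.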

Other observations

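Mast cell genes, which are no members of the set, also had their lowest summed level in C3. The 5 markers Cpa3, Mcpt4, Kit, Cma1 and Tpsb2 summed to 12.1, 18.1 and 5.66 CPM in C1 to C3 and 17.3, 15.2 and 18.1 CPM in YAP1 to YAP3. The most abundant, Tpsb2, a mast cell tryptase, had 2.10, 5.18 and 1.64 CPM in the controls and 4.03, 4.53 and 4.71 CPM in the Yap-shRNA muscles. C1, the highest control for most members, was not the highest for this sum.

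Chosen after its values were seen, Arg1, the arginase of alternatively activated macrophages, had 1.01, 0.836 and 4.76 CPM in C1 to C3 and 0.252, 0.768 and 0.0797 CPM in YAP1 to YAP3 (log2 fold change -2.53, SE 0.84, edgeR unadjusted p = 0.0145). All 3 Yap-shRNA muscles lay below all controls. The highest level was in C3, the muscle in which 34 of 38 members were lowest, and the reads behind it were few, from 1 to 58 per library. Retnla, another gene of alternative activation and the most abundant of that list, had 20.4, 24.2 and 5.91 CPM against 13.1, 10.7 and 19.8 CPM, with C3 lowest.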
